A study of Mus musculus with 24 samples.

Results

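The comparison described here sets basophils of tristetraprolin-deficient mice (TTP-KO, called KO below) against wild-type (WT) basophils 4 h after antigen was washed away. Its members are the libraries that the labels place at this time, 3 of KO and 3 of WT cells, 6 of the 24 in the series. Basophils were grown from bone marrow of either genotype for 7 days with 0.3 ng/mL IL-3, so they are cultured cells and not basophils taken from tissue. TNP-specific IgE (1 µg/mL) and the uridine analogue 4-thiouridine (s4U, 150 µM) were added on day 6, and CD49b+ cells were then enriched with magnetic beads. Cells of every group, WT controls included, then received TNP-coupled ovalbumin (10 ng/mL) together with s4U for 1.5 h, were washed, and were kept without either. The same genotypes at 0 h and 2 h after the wash, 3 libraries each, served for comparison over time. No label gives the age of the mice, the part of the gene that was removed, or the animals and cultures behind the replicates. The p-values therefore cover the scatter of these 24 libraries, part of which may be technical. Values are reads of total RNA per gene. The estimated s4U-labelled shares were not used here, so labelled and unlabelled RNA are not given apart.

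Tristetraprolin, the product of Zfp36, binds AU-rich elements in the 3' untranslated regions (UTRs) of short-lived RNAs and recruits the deadenylation machinery that starts their decay. Its known targets include cytokine and chemokine RNAs, and its own RNA is among them. In basophils, antigen that crosslinks IgE on the high-affinity IgE receptor induces IL-4, IL-13 and chemokines. The core of the TTP binding site, written as DNA, is TATTTAT, and the longer form is TTATTTATT. Sites of some of the genes described below are printed here, and only genes that hold a site are shown. They come from the GENCODE M21 transcripts (build GRCm38, which is not the build the submitters name, so positions are not compared). They run 5' to 3' with the motif in capitals. The first 7 hold the longer form, and the last 3 come from genes whose longest annotated 3' UTR holds the core and not the longer form.
Areg: tttaagtgTTATTTATTttatagct
Cxcl2: gagttcacTTATTTATTtatctatg
Il13: tcttgatcTTATTTATTatggttgt
Tnf: tgcacttaTTATTTATTatttattt
Dusp1: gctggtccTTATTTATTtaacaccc
Phlda1: gattatgaTTATTTATTagtttttt
Zfp36: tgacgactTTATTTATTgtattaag
Il4: tatttttaaTATTTATatatttata
Ccl3: atttgtgacTATTTATtctgaaaga
Il6: tatgattgaTATTTATtatttttat

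The 6 libraries held 8839260 to 19357237 reads, and KO B (8839260) and KO C (10878380) were the smallest. Levels are given as CPM, reads brought to the same total in every library after TMM scaling (a scaling that rests on the bulk of the genes). Differences are log2 changes of KO against WT ± SE from 1 edgeR fit to all 24 libraries, with p adjusted over the 12936 genes tested, and a gene was called, or is written as higher or lower, at an adjusted p under 0.05. Over 7079 genes of at least 10 CPM, log levels correlated at 0.933 to 0.947 between WT libraries and at 0.916 to 0.938 between KO libraries, with KO B and KO C the closest KO pair. Basophil genes were present in all 6 libraries: the basophil proteases Mcpt8 and Prss34 lay at 12242 to 13550 and 6344 to 7309 CPM, and Fcer1a, the chain of the IgE receptor that binds IgE, lay at 67.4 to 86.4 CPM. Itga2, which encodes the CD49b used for enrichment, lay at 26.9 to 40.1 CPM. The groups overlapped for Mcpt8, Prss34, Fcer1a and Itga2. For Cpa3 and Gata2, also basophil genes, every KO library lay below every WT library. Cpa3 lay at 1377 to 1391 CPM in WT and 1064 to 1187 in KO, and Gata2 at 1207 to 1403 and 1081 to 1182 CPM. Actb, the most abundant of the actin genes, took 6.62% to 6.86% of the reads in WT, 5.92% in KO A, 4.15% in KO B and 4.27% in KO C.

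Zfp36, the gene targeted in KO, was read at 58.4, 68.5 and 78.2 CPM in WT A, B and C, and at 22.4, 62.1 and 28.1 CPM in KO A, B and C. KO B thus lay inside the WT range. The fit gave a log2 difference of -0.87 ± 0.24 (SE; adjusted p = 0.0422). Libraries were made from 3' ends, and with the removed part of the gene not stated, tags from a remaining 3' end do not check the genotype. The difference did not pass without KO A, KO C, WT B or WT C (adjusted p up to 0.243), with scaling by library size alone (0.0708), with DESeq2 (0.167) or in a fit to the 6 libraries of 4 h alone (0.442). The related Zfp36l1 and Zfp36l2, which bind the same kind of element, had overlapping groups. Zfp36l1 averaged 47.8 ± 10.3 CPM in WT and 61.2 ± 10.2 in KO (SD, n = 3 each), and Zfp36l2 averaged 209 ± 12 and 194 ± 22.6 CPM.

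At 4 h, 122 genes were higher and 114 lower in KO, of 12936 tested. These are 1.82% of the genes tested, 0.943% on the higher side and 0.881% on the lower. Among the genes higher in KO were cytokines and chemokines (Il4, Il13, Ccl3, Cxcl2, Areg), macrophage and lysosome genes (Ctsl, Gpnmb, Apoe, Lyz2) and ribosomal protein genes. Actin cytoskeleton genes, Slpi and Alox15 were among the lower. The median log2 difference was 0.90 for the higher genes and -0.76 for the lower, and 57 and 29 of them differed by more than 2-fold. The KO libraries all lay above the WT libraries in 111 of the 122 genes (7.11% of all genes tested) and all below in 102 of the 114 (6.79% of all genes tested). The genes were called by their difference in these same libraries, so this separation is no further support for the calls. Of the called genes, 7 higher and 5 lower had 0 reads in every library of the other group, and setting these at their bounds left both medians as given.

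The number of calls depended on which libraries were present. With KO B and KO C both left out, so that KO was KO A alone and was assumed to vary like the other groups, 55 genes were higher and 75 lower, of which 44 and 17 were among the original calls, and 232 of the 236 original genes kept their direction. Leaving out any 1 of the 6 libraries kept 49 of the higher and 31 of the lower genes called in every case. A fit to the 6 libraries alone, without the spread of the other groups, called 38 higher and 9 lower. Of the 79 called genes that the rules named, 23 passed in that fit, among them Il4, Ccl3, Cxcl2, Areg, Ctsl, Gpnmb, Apoe and Actb. The other 56 did not, among them Il13, Il6, Tnf, Osm, Ccl6, Tpsb2 and Tmsb4x. With DESeq2, 76 of the 79 passed, all but Arg1, Pfn1 and Zfp36, and with library size alone 74, all but Actr3, Egr3, Fam53c, Itga2b and Zfp36.

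**Figure D1:**
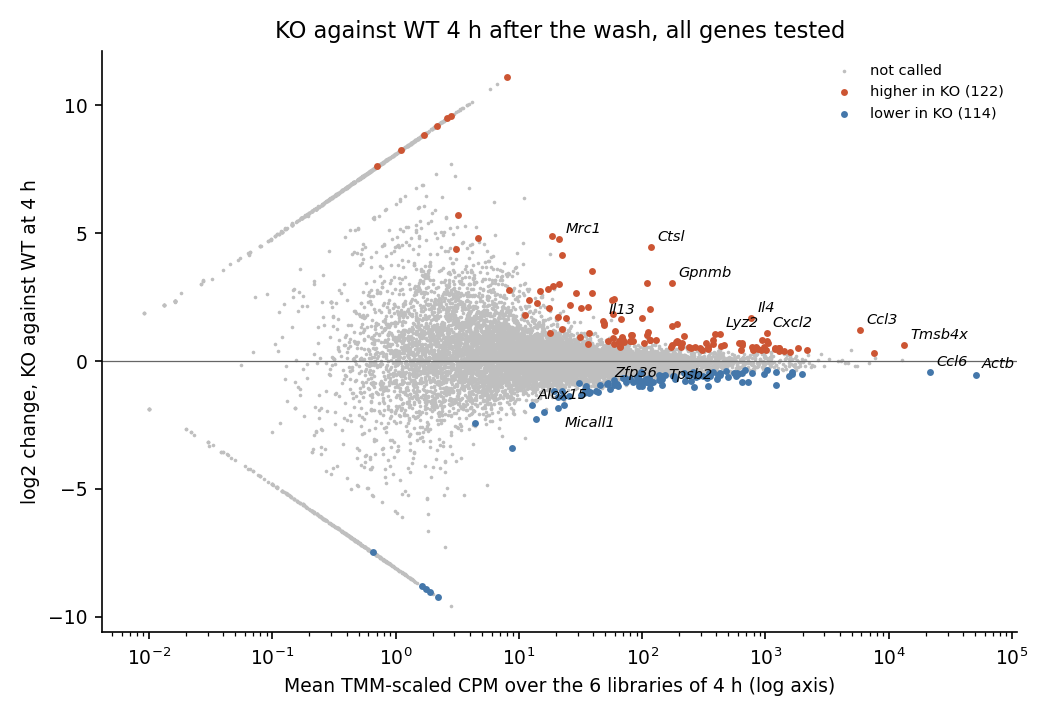
Log2 change of KO against WT at 4 h (vertical) against the mean TMM-scaled CPM over the 6 libraries (horizontal, log axis) for every gene tested that had reads at 4 h; orange points are the 122 genes higher and blue points the 114 lower in KO at an adjusted p under 0.05. Ctsl, Gpnmb, Mrc1 and Il4 stand above the cloud, Actb and Ccl6 lie just below 0 at the far right, and the straight lines of points at the far left are genes with 0 reads in one group, whose fitted value depends on the prior count.

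Of 35 basophil cytokine and chemokine genes tested, 12 were higher in KO and 1 was lower, with a median log2 difference of 0.16 beside 0 over all genes. Il4, the type 2 cytokine that basophils are known for, was read at 363, 355 and 382 CPM in WT and at 1373, 1053 and 1096 CPM in KO. The lowest KO library was far above the highest WT library, and the log2 difference was 1.68 ± 0.12 (adjusted p = 2.65e-15). Il13, its relative encoded in the same cytokine locus, was read at 29.1, 19.7 and 23.1 CPM in WT and at 51.2, 53.4 and 111 CPM in KO, a difference of 1.58 ± 0.20 (adjusted p = 6.35e-07). The groups did not overlap, and KO C held the highest level of Il13. It was 1.08 with KO B and KO C both left out and 1.12 to 1.79 with any 1 library left out.

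The chemokine genes went in different directions. Ccl3, which encodes the chemokine MIP-1α, was read at 3943, 3255 and 3501 CPM in WT and 7192, 8491 and 8855 CPM in KO, a log2 difference of 1.20 ± 0.09 (adjusted p = 1.74e-14). Cxcl2, a neutrophil attractant, was read at 587, 691 and 685 CPM in WT and 1348, 1304 and 1503 CPM in KO, a difference of 1.08 ± 0.10 (adjusted p = 1.41e-10). In both genes every KO library lay above every WT library. Ccl4, the neighbour of Ccl3 in function and in the genome, was read at 5468, 6036 and 6063 CPM in WT and 6422, 4623 and 4449 CPM in KO. Here KO A lay above the WT range and KO B and KO C below it, and the difference of -0.18 ± 0.10 was not called (adjusted p = 0.469). Ccl2, a monocyte attractant, averaged 18 ± 8.30 CPM in WT and 95.0 ± 20.0 in KO, a log2 difference of 2.40 ± 0.48 (adjusted p = 0.00202). Ccl6, the abundant CC chemokine of myeloid cells, was the member that was lower, at 24939 ± 771 CPM in WT and 18396 ± 3177 in KO (-0.44 ± 0.09, adjusted p = 0.00274). For Ccl6 the difference with KO B and KO C left out was -0.19 (adjusted p = 0.595).

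Areg, which encodes the growth factor amphiregulin, was read at 228, 236 and 286 CPM in WT and 489, 529 and 554 CPM in KO (1.07 ± 0.11, adjusted p = 3.07e-09). Il1b, the inflammatory cytokine gene, was read at 936, 647 and 696 CPM in WT and 1053, 1359 and 1519 CPM in KO (0.79 ± 0.13, adjusted p = 2.40e-04). WT A and KO A came close to each other for Il1b, and with KO B and KO C left out the difference was 0.46 (adjusted p = 0.146). Il6 averaged 1396 ± 67.6 CPM in WT and 1793 ± 151 in KO (0.36 ± 0.09, adjusted p = 0.0114). Tnf, the TTP target studied the longest, was read at 46.8, 45 and 67.9 CPM in WT and 90.0, 67.3 and 77.5 CPM in KO, so that KO B lay just under WT C (0.56 ± 0.15, adjusted p = 0.0329). Osm, the cytokine oncostatin M, averaged 856 ± 130 CPM in WT and 1161 ± 83.3 in KO (0.44 ± 0.11, adjusted p = 0.0233). Il6 and Osm did not pass without KO C, WT B or WT C (adjusted p up to 0.0678 and 0.135), nor Tnf without KO A, KO C, WT A or WT B (up to 0.193). Ccl7 and Hbegf completed the 12 higher members.

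**Figure D2:**
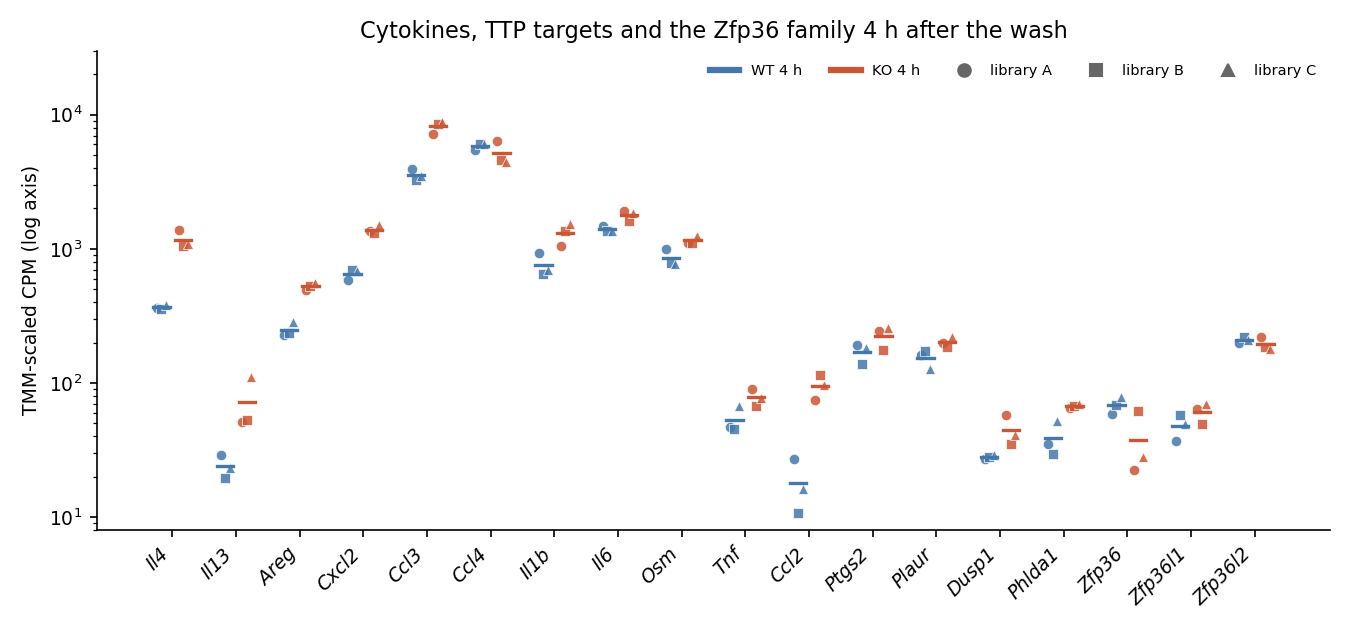
TMM-scaled CPM at 4 h (vertical, log axis) in each WT (blue) and KO (orange) library of 18 genes; circles, squares and triangles are libraries A, B and C, and horizontal bars are group means. Il4, Il13, Areg, Cxcl2 and Ccl3 show KO libraries well above the WT libraries, Ccl4 and Zfp36l2 overlap, and in Zfp36 the KO B square sits among the WT points.

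Of 50 genes listed as TTP targets from earlier work, 13 were higher in KO and 1, Zfp36 itself, was lower, with a median log2 difference of 0.31. Without WT B 8 were higher, in the 6 libraries alone 7, and the call of Zfp36 was lost in the fits named above. The list shares its cytokines with the list above. Its called members outside the cytokines were Dusp1, which encodes a MAP kinase phosphatase, and Phlda1, an immediate early gene. Dusp1 was read at 27.3, 28.1 and 28.9 CPM in WT and 58.1, 35.2 and 40.6 CPM in KO (0.67 ± 0.17, adjusted p = 0.0248). Phlda1 was read at 34.8, 29.5 and 51.9 CPM in WT and 65.0, 67.3 and 70.1 CPM in KO (0.80 ± 0.18, adjusted p = 0.00863). Neither gene's groups overlapped. Dusp1 did not pass without KO A, WT A or WT B, nor Phlda1 without WT A or WT B (adjusted p up to 0.200 and 0.0976). Ptgs2, the gene of the inducible prostaglandin synthase COX-2, averaged 170 ± 28.7 CPM in WT and 226 ± 42.4 in KO (0.41 ± 0.13, adjusted p = 0.1248). Plaur, which encodes the urokinase receptor, averaged 154 ± 24.9 and 201 ± 16.8 CPM (0.39 ± 0.15, adjusted p = 0.262). Summed over the list, levels lay at 19119 to 19999 CPM in WT and 25711 to 27054 CPM in KO. The means of the sum were 19463 and 26594 CPM. Ccl3 alone averaged 3566 CPM in WT and 8179 in KO, and so made up most of the rise.

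The share of genes with the motif was close to that of all genes among the genes higher at 4 h. TTATTTATT stood in the longest annotated 3' UTR of 10 of the 121 matched higher genes (8.26%), 7 of the 114 lower genes (6.14%) and 1058 of 12819 genes tested (8.25%). The core TATTTAT, which the longer form contains, stood in 31.4%, 26.3% and 30.5%, searched on the transcribed strand alone. With ribosomal protein genes left out, the longer form stood in 9.52% of the matched higher genes and the core in 35.2%. In the list of earlier TTP targets, these shares were 44.0% for the longer form and 76.0% for the core. Ctsl, Gpnmb, Apoe, Arg1, Lyz2, Ccl2, C1qa, C1qb and C1qc, all higher in KO, held neither form. Micall1, which was lower, held the longer form, as did Zfp36l1, Zfp36l2 and Ptgs2, which were not called. The searched UTRs were shorter in the higher genes, with a median of 734 bases against 1325 in the lower genes and 1354 in all.

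Of 43 immediate early genes, 5 were higher (Atf3, Egr2, Dusp1, Phlda1, Trib1) and 1 was lower (Egr3), with a median log2 difference of 0.01. Egr2, a zinc-finger transcription factor gene, averaged 11.3 ± 1.67 CPM in WT and 24.1 ± 8.02 in KO (1.08 ± 0.28, adjusted p = 0.0248), whereas its relative Egr3 averaged 112 ± 3.97 and 83.4 ± 15.1 CPM (-0.43 ± 0.11, adjusted p = 0.0366). With KO B and KO C left out these were 0.52 and -0.17, neither called, and leaving out KO C or WT B also ended both calls (adjusted p up to 0.209 and 0.256). Trib1, which encodes a pseudokinase, averaged 46.0 ± 3.06 and 73.0 ± 10.1 CPM (0.66 ± 0.15, adjusted p = 0.00668). Atf3, a stress-response transcription factor gene, averaged 13.2 ± 1.74 and 31.2 ± 9.81 CPM (1.24 ± 0.35, adjusted p = 0.0466). Trib1 lost its call without KO B, and Atf3 without any 1 library other than KO A (adjusted p up to 0.0811 and 0.293). Without WT A 2 of the list were higher, without WT B 1, without KO B or KO C 3, and in the 6 libraries alone none. Of 27 NF-kB subunits, inhibitors and targets none was called (median -0.03).

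Of all lists described here, monocyte and macrophage markers had the largest median difference. Of 22 monocyte and macrophage markers tested, 9 were higher in KO and none was lower, with a median log2 difference of 1.57. Gpnmb, a lysosomal membrane glycoprotein gene, was read at 41.7, 35.8 and 36.0 CPM in WT and 286, 295 and 356 CPM in KO (3.04 ± 0.16, adjusted p = 1.76e-19). Apoe, which encodes apolipoprotein E, was read at 18.8, 25.8 and 26.9 CPM in WT and 217, 153 and 220 CPM in KO (3.05 ± 0.19, adjusted p = 2.52e-17). The complement genes C1qa, C1qb and C1qc averaged 3.80, 4.36 and 2.13 CPM in WT and 25.6, 33.7 and 14.6 CPM in KO. Mrc1, the mannose receptor gene, was read at 2.64, 1.85 and 0 CPM in WT and 41.9, 43.6 and 37.5 CPM in KO (4.76 ± 1.04, adjusted p = 0.00530). Lyz2, which encodes lysozyme, averaged 274 ± 40.1 CPM in WT and 574 ± 77.4 in KO (1.07 ± 0.12, adjusted p = 6.00e-08). In each of these genes the KO libraries all lay above the WT libraries. The rule for the largest increases required this of Gpnmb, Apoe, C1qa, C1qb and Mrc1. Over the 22 markers, the KO libraries all lay above in 12 and all below in 0, beside 7.11% and 6.79% of all genes tested. With KO B and KO C left out the list's median was 1.28.

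The macrophage markers did not all differ. Adgre1, which encodes the macrophage antigen F4/80, was read at 48.6, 49.8 and 45.7 CPM in WT and 53.2, 25.8 and 31.3 CPM in KO. Ccr2, the receptor for Ccl2, and the osteopontin gene Spp1 also had overlapping groups, the latter at 1974 to 2093 CPM in WT and 1866 to 2168 CPM in KO. Csf1r, the macrophage growth factor receptor gene, lay at 41.6 to 47.5 CPM in WT and 68.9 to 88.7 CPM in KO, with an adjusted p of 0.0551. Summed over the 22 markers, levels were 2827, 2784 and 2930 CPM in WT and 3996, 3558 and 4114 CPM in KO, a ratio of 1.37. Spp1 alone made up 70.9% to 73.2% of that sum in WT and 47.3% to 54.2% in KO. Without it, a sum chosen after its values were seen, the other 21 markers lay at 758, 810 and 837 CPM in WT and 1828, 1692 and 2169 CPM in KO, a ratio of 2.37. In such bulk samples more cells of a type and more RNA per cell cannot be told apart. The part of these levels in the other differences was not tested.

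Ctsl, the gene of the lysosomal protease cathepsin L, showed the clearest separation: 7.50, 11 and 12.5 CPM in WT and 227, 221 and 231 CPM in KO, a log2 difference of 4.46 ± 0.22 (adjusted p = 1.66e-20). The 6 fits that each left out a library of 4 h gave 4.27 to 4.62. Ctsb and Psap, for cathepsin B and prosaposin, were also higher, at 97.4 ± 17 against 253 ± 78.2 CPM and at 243 ± 16.2 against 348 ± 28 CPM (WT against KO). Ctsd, for cathepsin D, was lower, at 1916 ± 99.0 CPM in WT and 1366 ± 76.6 in KO (-0.49 ± 0.10, adjusted p = 0.00249). Psap lost its call without WT B (adjusted p = 0.0570). These were the called members of 41 lysosome genes, whose median was -0.04. Of 19 genes of the response to IL-4 and IL-3, 3 were higher (Arg1, Socs2 and Osm, median 0.40), and Socs2 lost its call without KO B, WT A or WT C (adjusted p up to 0.192). Arg1, the arginase gene that marks IL-4-exposed macrophages, was read at 5.19, 8.50 and 5.37 CPM in WT and 104, 39.8 and 72.6 CPM in KO (3.51 ± 0.82, adjusted p = 0.0113). With DESeq2 Arg1 did not pass (adjusted p = 0.0899).

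The 12 largest increases of the whole comparison, among genes of at least 10 CPM with separate groups, were Ctsl, Gpnmb, Apoe, Arg1, C1qa, C1qb, Mrc1, Msr1, Ms4a6d, Dab2, Fabp4 and Mmp14. Msr1 encodes a scavenger receptor, Ms4a6d a membrane protein of myeloid cells, Dab2 an endocytic adaptor, Fabp4 a fatty acid-binding protein and Mmp14 a membrane-bound metalloprotease. Fabp4 was read at 1.76, 0 and 1.85 CPM in WT and 33.0, 26.5 and 48.0 CPM in KO (4.88 ± 1.09, adjusted p = 0.00668). Dab2 was read at 2.31, 4.88 and 0 CPM in WT and 60.2, 25.4 and 41.1 CPM in KO (4.14 ± 0.88, adjusted p = 0.00431). Apart from Gpnmb and Apoe, the named genes lay at or under 13.7 CPM in every WT library. C1qa lost its call without WT B, and Msr1 without KO C, WT A or WT C (adjusted p up to 0.0759 and 0.170). In the edgeR fit to the 6 libraries alone, C1qa, Dab2 and Mmp14 did not pass (adjusted p = 0.0820, 0.07775 and 0.162).

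Of the 12 largest decreases, Alox15, the gene of 12/15-lipoxygenase, was read at 15.0, 17.9 and 26.0 CPM in WT and 7.86, 3.29 and 6.56 CPM in KO (-1.71 ± 0.27, adjusted p = 5.26e-05). Micall1, which encodes a protein of recycling endosomes, was read at 33.4, 36.8 and 27.0 CPM in WT and 7.97, 5.23 and 14.0 CPM in KO (-1.83 ± 0.29, adjusted p = 6.10e-05). Rsad2, the gene of the antiviral protein viperin, was read at 45.2, 54.6 and 56.8 CPM in WT and 18.7, 26.1 and 21.7 CPM in KO (-1.24 ± 0.27, adjusted p = 0.00476). All 3 passed with any 1 library left out and with KO B and KO C both left out, but none of them in the fit to the 6 libraries alone (adjusted p = 0.307, 0.123 and 0.109). Atxn1l, a transcriptional repressor gene, averaged 25.5 ± 8.58 CPM in WT and 6.45 ± 0.0583 in KO (-1.98 ± 0.39, adjusted p = 0.00160). The others, Cxxc5, Dock11, Fam53c, Gm45234, Pdzd4, Ppp4r1, St14 and Tmem9, differed by -1.21 to -2.27. Fam53c lost its call without KO A, KO B, WT A or WT C, Gm45234 without KO C or WT C, and Pdzd4 without KO B, KO C, WT A or WT C (adjusted p up to 0.313, 0.173 and 0.231). St14 lost it without KO C and Tmem9 without KO B or WT B (adjusted p up to 0.0655 and 0.241).

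**Figure D3:**
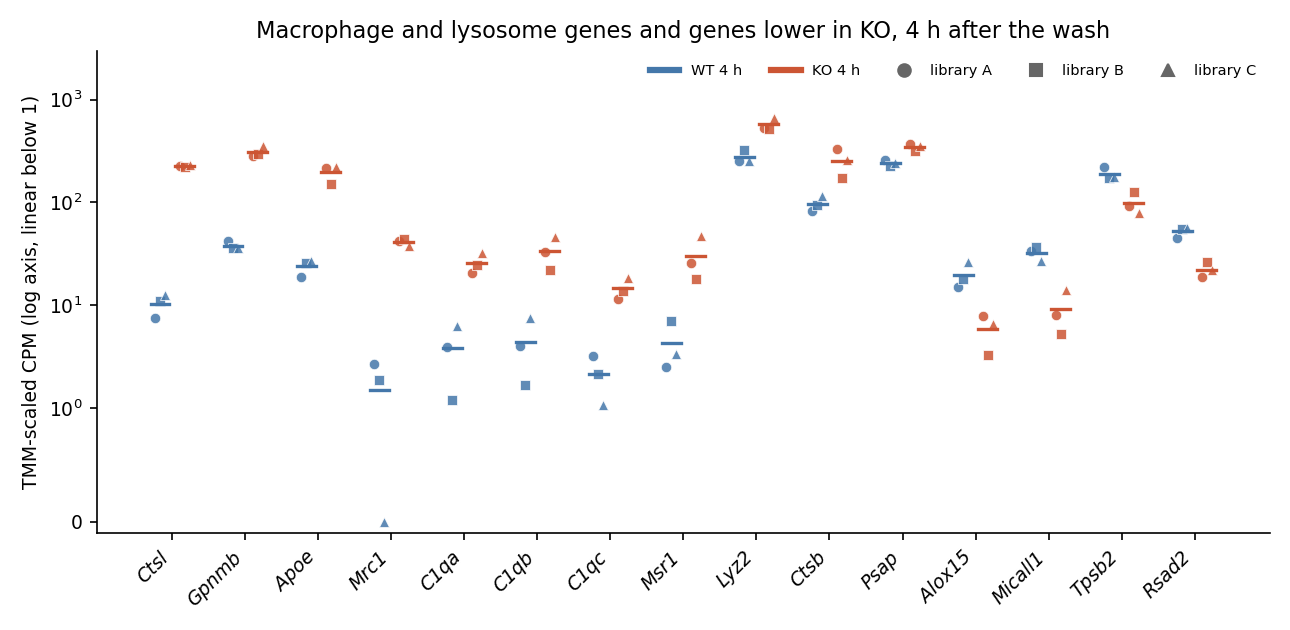
TMM-scaled CPM at 4 h (vertical, log axis that is linear below 1) of macrophage and lysosome genes and of 4 genes lower in KO, by library; colours, symbols and bars as in the plot of cytokines. WT levels of Ctsl, Mrc1 and the C1q genes lie at or under 12.5 CPM and KO levels at or above 11.6 CPM, while Alox15, Micall1, Tpsb2 and Rsad2 show the opposite order.

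Genes of basophil identity and granules were called in both directions. Of 33 tested, 1 was higher and 2 were lower, with a median of -0.14. Of all genes tested, 0.943% were higher and 0.881% lower. The KO libraries all lay below the WT libraries in 9 of the 33 and all above in 0, beside 6.79% and 7.11% of all genes tested. The higher gene was Hdc, which encodes the enzyme that makes histamine, at 7527, 6650 and 6158 CPM in WT and 7106, 9112 and 9185 CPM in KO (0.32 ± 0.09, adjusted p = 0.0399). KO A lay within the WT range of Hdc, and without KO B and KO C its difference was 0.06. Itga2b, an integrin chain gene, averaged 1157 ± 93.5 CPM in WT and 898 ± 65.7 in KO (-0.37 ± 0.10, adjusted p = 0.0397), and Alox15 was the other lower gene. Hdc lost its call without KO B, KO C, WT B or WT C, and Itga2b without any 1 library other than KO A (adjusted p up to 0.238 and 0.290). Of 9 mast cell markers 1 was lower, Tpsb2, the gene of a mast cell tryptase, at 221, 172 and 176 CPM in WT and 92.1, 126 and 78.5 CPM in KO (-0.94 ± 0.17, adjusted p = 6.32e-04). The mast cell list had a median of -0.51. Its 11 deposited members, tested or not, summed to 576 to 617 CPM in WT and 366 to 463 in KO. Mcpt1 and Mcpt4, proteases of mature mast cells, were at 0 in all 6 libraries.

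Of 18 neutrophil markers 2 were called: S100a8 and S100a9, the calprotectin genes, were higher. S100a8 was read at 972, 1070 and 1122 CPM in WT and 1447, 1476 and 1630 CPM in KO, and S100a9 averaged 1210 ± 48.1 and 1594 ± 57.1 CPM. S100a8 lost its call without KO C or WT A, and S100a9 without KO B or any 1 WT library (adjusted p up to 0.0813 and 0.114). The summed neutrophil list lay at 3265 to 3423 CPM in WT and 4066 to 4281 in KO. Its mean was 3370 CPM in WT and 4204 in KO, a rise no larger than that of S100a8 and S100a9 together. The list's median was 0.09, and -0.21 without KO B and KO C. Of 15 dendritic and B cell markers, Cd74, the invariant chain of MHC class II, was higher, at 83.4 ± 7.77 CPM in WT and 147 ± 19.4 in KO (0.81 ± 0.18, adjusted p = 0.00503), and it was lost without KO C (adjusted p = 0.0603). That list summed to 377 to 434 CPM in WT and 459 to 533 in KO. Sums and genes at 0 in this paragraph cover every listed gene that was deposited, tested or not. These were 17 dendritic and B cell, 13 NK and T cell, 9 eosinophil and 13 erythroid, megakaryocyte and progenitor markers. No member was called among 8 NK and T cell markers (Cd4, Klrd1 and Tbx21 at 0 in all 6 libraries, sums of 664 to 698 and 571 to 674 CPM), 8 eosinophil markers (Il5ra at 0, sums of 162 to 191 and 179 to 223 CPM) or 12 erythroid, megakaryocyte and progenitor markers (Car1 at 0, sums of 1649 to 1952 and 1908 to 2178 CPM).

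Of 79 ribosomal protein genes tested, 16 were higher in KO and none was lower, and the median log2 difference was 0.20. The difference lay above 0 in 62 of them, beside 6432 of the 12936 genes tested. Rpl26 was read at 457, 435 and 513 CPM in WT and 551, 885 and 822 CPM in KO (0.69 ± 0.15, adjusted p = 0.00496), and Rps12 at 1451, 1543 and 1536 CPM in WT and 1786, 2492 and 2171 CPM in KO (0.51 ± 0.11, adjusted p = 0.00719). In both, KO B and KO C stood far above KO A, and Rps12 lost its call without KO B (adjusted p = 0.104). The list's median against the WT mean was 0.07 in KO A, 0.28 in KO B and 0.25 in KO C, and from -0.04 to 0.04 in the WT libraries against one another. The count of higher members was 25 without KO A, 8 without KO B, 8 without KO C, 11 to 14 without 1 WT library and 1 in the 6 libraries alone. With KO B and KO C left out, no ribosomal protein gene was called and the median was 0.06. Of 71 nuclear-encoded respiratory chain genes, 4 were higher (Ndufa5, Ndufa6, Cox7c and Atp5mg, median 0.21). All 4 lost their calls without KO B, KO C, WT A or WT B alone, and Ndufa5, Cox7c and Atp5mg also without WT C (adjusted p up to 0.378). The list's count was 8 without KO A and 0 in the 6 libraries alone, and no member was called without KO B and KO C (median 0.15).

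Of 34 actin cytoskeleton genes tested, 8 were lower in KO and 1 was higher, with a median of -0.23. The count of lower members was 13 without KO A, 3 without KO B, 5 without KO C, WT A or WT C, 6 without WT B and 2 in the 6 libraries alone. Actb was read at 59287, 59391 and 61171 CPM in WT and 52291, 35502 and 36756 CPM in KO (-0.53 ± 0.10, adjusted p = 6.63e-04). Pfn1, the gene of the actin-binding protein profilin, was read at 688, 970 and 799 CPM in WT and 824, 273 and 309 CPM in KO (-0.80 ± 0.20, adjusted p = 0.0180), so that KO A lay within the WT range. Tmsb4x, which encodes the actin-sequestering thymosin β4, was the member that was higher, at 9944, 11012 and 10760 CPM in WT and 11007, 18608 and 18731 CPM in KO (0.61 ± 0.13, adjusted p = 0.00638). KO A again lay within the WT range. Without KO B and KO C the differences were -0.21 for Actb, 0.00 for Pfn1 and 0.05 for Tmsb4x, none called, and the list's median was -0.06. Myh9, Lcp1, Arpc4 and Actr3, for a nonmuscle myosin, plastin and parts of the actin-nucleating complex, were also lower by 0.41 to 0.52 on the log2 scale, and likewise none was called without KO B and KO C. Myh9 passed with any 1 library left out. Lcp1 lost its call without WT A, Arpc4 without KO B, KO C, WT A or WT C, and Actr3 without any 1 library other than KO A (adjusted p up to 0.200, 0.279 and 0.266). Leaving out KO B, KO C or WT B alone ended the call of Pfn1, and KO C alone that of Tmsb4x (adjusted p up to 0.190 and 0.0527).

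**Figure D4:**
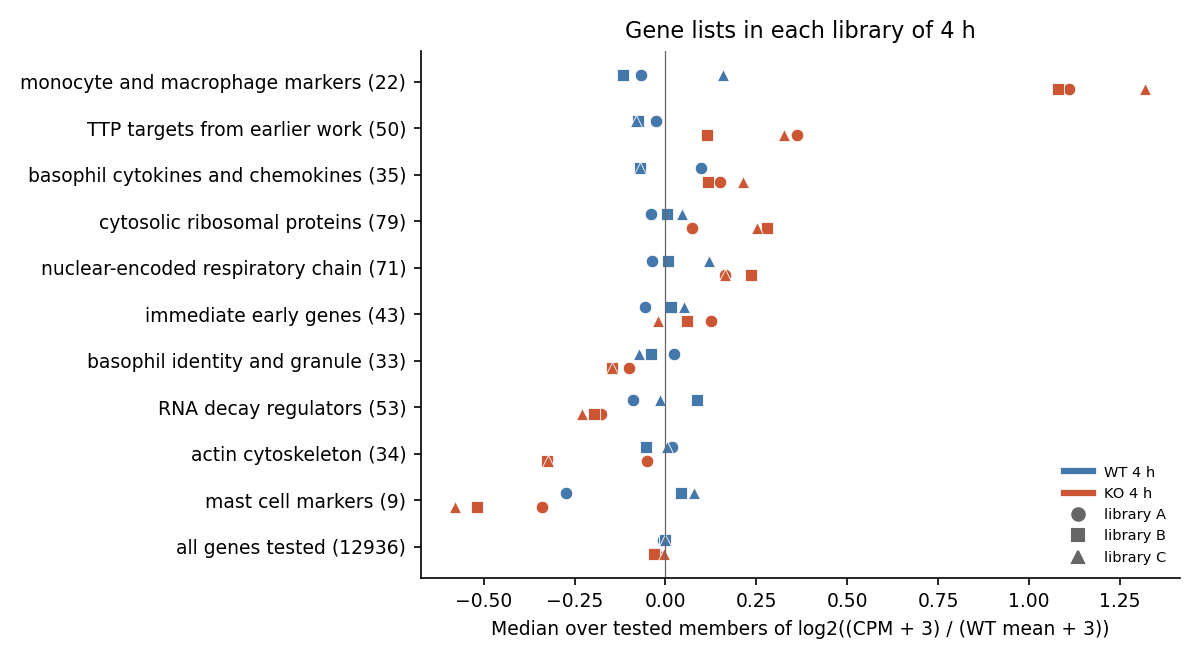
Median over the tested members of each list (number in parentheses) of the log2 level of a library against the WT mean, with 3 CPM added to both; a WT library is set against the other WT libraries. Macrophage markers and TTP targets are above 0 in all KO libraries, while ribosomal protein and actin lists set KO B and KO C (orange squares and triangles) apart from KO A.

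Short and long transcripts also differed, in a split chosen after the data were seen. Of 434 genes of at least 10 CPM whose longest annotated transcript was under 1000 bases, 28 were higher and 3 lower in KO. Of 2518 with transcripts over 4000 bases, 13 were higher and 40 lower. Of 2816 with 2000 to 4000 bases, 30 were higher and 45 lower. Of all 7222 genes of at least 10 CPM, 111 were higher and 107 lower. The lower share of the long group was thus near that of all, and that of the short group was below it. The higher share was above that of all in the short group and below it in the long group. The median log2 level against the WT mean was 0.12, 0.12 and 0.14 for the short group in KO A, B and C, and -0.06, -0.18 and -0.12 for the long group. WT libraries against one another lay between -0.07 and 0.05 in both groups. Over all called genes the median transcript was 1743 bases for higher and 3401 for lower genes, against 3158 for all genes tested. The part of transcript length, library size or the KO B and KO C libraries in the calls was not tested.

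The calls of the remaining lists stand beside 0.943% higher and 0.881% lower among all genes tested. Of 53 RNA decay regulators, Zfp36 and Pan3, a deadenylase subunit gene, were lower, with a median of -0.26. Pan3 was read at 77.0, 80.5 and 67.1 CPM in WT and 48.5, 19.1 and 37.6 CPM in KO, and lost its call without KO B, KO C, WT A or WT B (adjusted p up to 0.259). Of 18 genes of lipid mediator synthesis only Alox15 was called (median -0.25). Ddit4, an mTOR inhibitor gene, was the 1 lower member of 26 glycolysis and hypoxia genes (median -0.10), and Rsad2 that of 27 interferon response genes (median 0). Ddit4 lost its call without KO B, KO C or WT C (adjusted p up to 0.210). Pmaip1, which encodes the BH3 protein NOXA, was the 1 higher member of 19 p53 response genes (median -0.03), and passed without KO A and not without any other 1 library (adjusted p up to 0.209). None was called among 27 genes of the unfolded protein and integrated stress response (-0.18), 21 survival and apoptosis genes (0.01) or 33 cell cycle genes (-0.17).

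The differences at 4 h were set beside those at 0 h, measured in other libraries. At 0 h, 58 genes were higher in KO (0.448% of those tested) and 10 lower (0.0773%). Of the 122 genes higher at 4 h, 38 were also called higher at 0 h and 86 lay above 0 there, beside 47.6% of all genes tested. Their median log2 difference was 0.33 at 0 h and 0.50 at 2 h. Of the 114 lower genes, 2 were called lower at 0 h and 5 at 2 h, with medians of -0.15 and -0.20. Macrophage markers had a median of 2.13 at 0 h, with 10 members called higher, and Gpnmb differed by 3.03 at 0 h and by 3.04 at 4 h. Cytokines and chemokines had a median of 0.46 at 0 h, with 11 called higher. Ribosomal protein genes had a median of -0.12 at 0 h.

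The difference between genotypes at 4 h itself differed from that at 0 h in 25 genes (0.193% of those tested), 11 towards higher and 14 towards lower in KO. Il4 was the clearest among cytokines. At 0 h it was read at 3045, 3388 and 3109 CPM in WT and 3556, 2655 and 3531 CPM in KO, with overlapping groups, and the log2 difference grew by 1.65 from 0 h to 4 h (adjusted p = 2.15e-09). At 2 h it lay at 1417 to 1858 CPM in WT and 4956 to 5753 CPM in KO, a difference of 1.67, and 4 h did not differ from 2 h beyond the test (change of 0.01). Ctsl differed by 2.15 at 0 h, 3.03 at 2 h and 4.46 at 4 h, a growth of 2.30 from 0 h (adjusted p = 5.26e-07) and of 1.43 from 2 h (adjusted p = 0.0274). Its WT levels were 85 to 109 CPM at 0 h and 18.9 to 47.0 CPM at 2 h, against 423 to 473 and 251 to 297 CPM in KO. Lpl, the lipoprotein lipase gene, differed less at 4 h, by 1.43 against 2.73 at 0 h (change of -1.30, adjusted p = 0.00437). Its WT levels were 36.4 to 40.8 CPM at 0 h and 89.4 to 110 CPM at 4 h.

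Alox15 was not called at 0 h, with 110 to 154 CPM in WT and 119 to 134 CPM in KO, and the change to 4 h was -1.66 (adjusted p = 0.0398). Micall1 and Ctsl were the 2 genes (0.0155% of those tested) whose difference at 4 h differed from that at 2 h, Micall1 by -2.26 (adjusted p = 0.0123). Ptgs2 differed by 1.23 at 0 h and 1.30 at 2 h, and its difference of 0.41 at 4 h was smaller than at 0 h by 0.83 (adjusted p = 0.0398). Plk3, a stress-induced kinase gene, was at 0.80 at 0 h and -0.19 at 4 h (adjusted p of the change = 0.0129). Rpl36a, Rpl39, Rpl26, Rps12 and Tmsb4x changed by 0.75 to 1.02 between 0 h and 4 h, and these are genes whose 4 h values stand apart in KO B and KO C. Their 0 h values also entered the change. For Tmsb4x these were 8418.6 to 11296 CPM in WT and 7242.5 to 7752.1 in KO. In Rps12 and Rpl36a, too, every KO library of 0 h lay below every WT library. At 2 h the groups of Tmsb4x, Rps12, Rpl36a and Rpl39 overlapped. Edn1 and Col18a1, for endothelin-1 and a collagen chain, had 0 reads in WT at 0 h and 5.43 and 3.16 CPM in KO, at least 91.1-fold and 53.1-fold higher by the bound of 3 reads over the WT group, and overlapped between genotypes at 4 h.

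**Figure D5:**
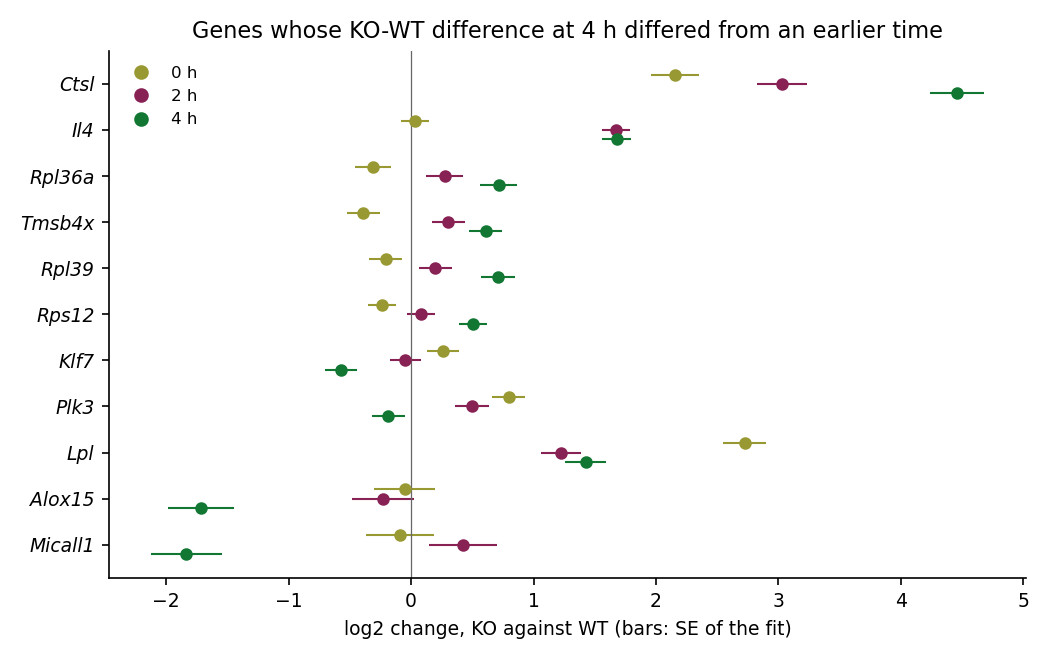
Log2 change of KO against WT at 0 h, 2 h and 4 h (horizontal; points with SE of the fit) for genes named by the tests of change over time, without Edn1 and Col18a1, whose 0 h value has no finite estimate. Ctsl moves further from 0 at each time, Il4 is at 0.03 at 0 h and near 1.68 at 2 h and 4 h, and Alox15 leaves 0 at 4 h.

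In WT cells, 837 genes were lower (6.47% of those tested) and 463 higher (3.58%) at 2 h than at 0 h. Scaling by library size alone, which moved the median of all genes from 0.01 to 0.26, turned this to 414 lower and 1033 higher. Of the genes higher in KO at 4 h, 37.7% fell in WT over this interval, and of the lower genes 36.0%, against 11.1% of all genes of at least 10 CPM. With library size alone these were 20.5%, 21.1% and 5.39%. The shares that rose were 8.2%, 7.02% and 6.06%, and with library size alone 10.7%, 13.2% and 13.7%. The higher and lower genes had median levels of 109.4 and 111.5 CPM, and the genes they were set against were not matched for level. Il13, Ptgs2, Tnf and Ccl3 fell in WT by 2.88, 2.43, 1.72 and 1.28 on the log2 scale. Egr3 fell by 3.26 and Il4 fell by 0.93. Il1b rose by 1.05.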

How the data were processed

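SLAM-seq libraries of alkylated RNA (65 ng; iodoacetamide 10 mM, 15 min at 50 °C) were made from 3' ends with QuantSeq V2, per the labels' protocols. Values are expected counts, deposited by the authors without normalization, for 15737 genes, and 12.8% of them were not whole. STAR 2.7.10a, cutadapt 3.5, SAMtools and the build GRCm39 are named in the submitters' processing notes. The annotation is not given in the sources used here. Column letters A to C are not tied to the labels' replicate numbers, so columns were taken as libraries of a group by 1 measure, the reads. A further 144 per-sample columns (estimates of the labelled share) were not used here.

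Expected counts were rounded, filtered with filterByExpr (12936 genes), scaled by TMM and fitted in edgeR 4.0.16 (R 4.3.3) by quasi-likelihood, with a mean for each of 8 groups over 24 libraries. The threshold was an adjusted p (Benjamini-Hochberg) under 0.05. SE is the log2 change over the root of F. Pairs of libraries within a group at 4 h differed by 28.5 to 64.7 in chi-square per degree of freedom, so none repeated another. With 3 libraries per group, 3 reads correspond to 0.139 to 0.291 CPM at 4 h, counting error only. The script was tested on simulated data.

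Members, gene lists and the naming rule were chosen with earlier results of these data known. Lists are described by counts and medians, with no set test. Named genes were: 13 fixed ones (Zfp36, Zfp36l1, Zfp36l2, Il4, Il13, Il6, Tnf, Ccl3, Ccl4, Cxcl2, Areg, Ptgs2, Plaur); the 12 largest increases and decreases among called genes of at least 10 CPM with separate groups; up to 6 called genes per list and direction by p; and the 6 smallest p per direction for changes over time. Genes named beyond these were chosen after their values were seen. Motifs were searched in the longest 3' UTR of GENCODE M21 (12819 of the 12936 genes matched). Alternatives were library size only, median-of-ratios factors, DESeq2 1.42.0, 6 libraries only, other filters, thinning, libraries left out and column letters as a block.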

Additional observations from a re-analysis of the deposited data

Results flagged for a closer look

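For 17 genes named here, the difference between KO and WT at 4 h differed from the difference at 0 h in a test of the change itself (edgeR, adjusted p under 0.05). On the log2 scale, the change from 0 h to 4 h was 2.30 for Ctsl, 1.65 for Il4, 1.17 for Phlda1 and 0.81 for S100a8, all towards higher in KO. It was 1.02 for Rpl36a, 1.00 for Tmsb4x, 0.93 for Rpl26, 0.92 for Rpl39 and 0.75 for Rps12, genes whose 4 h levels were higher in KO B and KO C than in KO A. In Rpl36a, Tmsb4x and Rps12, every KO library of 0 h also lay below every WT library. Towards lower in KO it was -1.66 for Alox15, -1.74 for Micall1, -1.30 for Lpl, -0.98 for Plk3, -0.83 for Klf7 and -0.83 for Ptgs2. Between 2 h and 4 h the change was 1.43 for Ctsl and -2.26 for Micall1.

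Edn1 and Col18a1 had fitted changes of -9.09 and -9.02 between 0 h and 4 h. Both had 0 reads in all WT libraries of 0 h, so these fitted values depend on the prior count and are no bound. Col18a1 was read at 3.24, 0 and 6.25 CPM in KO A, B and C at 0 h.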

How the results depend on the processing

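Counts of genes called moved with the test, the libraries used, the filter and, in WT, the scaling. The cause was not tested, other than fewer samples or genes by construction. DESeq2 called 273 higher and 216 lower at 4 h, 184 changes from 0 h, 99 from 2 h, 130 higher and 92 lower at 0 h, and 776 higher at 2 h than at 0 h in WT. The 6 libraries alone gave 38 higher and 9 lower. Without KO B and KO C together there were 55 higher and 75 lower at 4 h, 58 changes from 0 h, 29 from 2 h, and 91 higher and 43 lower at 0 h. With no filter on low counts, 89 changes from 0 h, 20 from 2 h and 40 genes lower at 0 h were called. Thinning every library to the smallest gave 6 changes from 2 h. Library size alone gave 414 genes lower and 1033 higher at 2 h in WT. With 1 library of 4 h left out, counts ranged from 73 to 183 higher and 55 to 248 lower at 4 h, 16 to 114 changes from 0 h, 4 to 49 from 2 h, and 64 to 67 higher and 15 to 21 lower at 0 h. The lowest and highest counts of lower genes came without KO B and without KO A. Column letters did not pair the libraries: deviations of KO and WT libraries with the same letter correlated at 0.03, 0.01 and -0.01. With the letter as a replicate block, 127 genes were higher and 113 lower at 4 h, 26 changes from 0 h and 6 from 2 h.

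For single named genes, 1041 of 1304 values under 15 alternatives kept direction and side of the threshold, 253 no longer passed and 5 newly passed. The 5 that turned sign were genes not called at 4 h. Without KO B and KO C these were Ccl4 (0.12), Plk3 (0.16) and Zfp36l2 (0.063). With 1 library left out, Plk3 ranged from -0.39 to 0.054 (without WT B) and Col18a1 from -0.75 to 0.11 (without WT A). Of the genes tested, 1155 had 0 reads in every library of at least 1 group at 4 h, so their fold is at best a bound. The summed macrophage markers gave a ratio of 2.37 without Spp1, an alternative chosen after seeing the data.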

Other observations

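The genes below lie outside the lists and were among the 80 genes that stayed called at 4 h with any 1 library left out. They are named after their values were seen. Cd36, a fatty acid transporter gene, was read at 7.59, 11.1 and 13.7 CPM in WT and 59.4, 90.2 and 52.7 CPM in KO (2.65 ± 0.35, adjusted p = 8.90e-07). Fabp5, a fatty acid-binding protein gene, was read at 23.3, 3.95 and 14.2 CPM in WT and 62.2, 54.7 and 61.5 CPM in KO (2.10 ± 0.33, adjusted p = 4.64e-05). Mmp12, the macrophage elastase gene, was read at 44.4, 37.9 and 53 CPM in WT and 238, 139 and 178 CPM in KO (2.04 ± 0.26, adjusted p = 5.99e-07). All 3 were also higher at 0 h. Hmox1, the heme oxygenase gene, was read at 21.1, 20.8 and 23.5 CPM in WT and 43.3, 32.4 and 48.1 CPM in KO (0.93 ± 0.19, adjusted p = 0.00371), beside -0.19 at 0 h.

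Among the lower genes of the same 80, Slpi, which encodes an inhibitor of leukocyte proteases, was read at 1381, 1682 and 1731 CPM in WT and 1048, 733 and 697 CPM in KO (-0.95 ± 0.12, adjusted p = 3.68e-07). Cyp4f18, a cytochrome P450 gene, was read at 379, 450 and 530 CPM in WT and 307, 180 and 195 CPM in KO (-0.99 ± 0.14, adjusted p = 3.59e-06). Itgb1, the integrin β1 gene, was read at 493, 475 and 534 CPM in WT and 386, 254 and 273 CPM in KO (-0.72 ± 0.14, adjusted p = 0.00146). In each, KO A lay between the WT libraries and the other KO libraries. At 0 h none of these 3 was called.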
